A study of Mus musculus with 24 samples.

Results

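Astrocytes were sorted from the hippocampus of control mice and of mice carrying a conditional Nfix knockout, and their RNA was compared. The comparison used 6 of the 24 libraries of the series, 3 with the genotype label WT (controls) and 3 labelled KO, and the 9213 of 24394 genes that had at least 10 normalized reads in at least 3 of the 6. Every library was bulk RNA-seq of astrocytes isolated by fluorescence sorting, and the other 18 libraries came from the olfactory bulb, cortex and thalamus of both genotypes. No treatment is named for any group. The sources used here give no Cre driver, deleted exons, sorting marker, age or sex. Nothing in the labels says that the 3 libraries of a group are from different animals, and the p-values below rest on the spread among libraries, which may be technical.

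A normalized read is 1 read over the size factor that its library was given, and values of a group are given in the order of replicates 1, 2 and 3. A log2 difference is the mean of log2(normalized reads + 10) over the libraries labelled KO minus that over WT, which understates the change of genes with few reads. A gene was called where limma's p, adjusted by Benjamini-Hochberg over all genes tested, was under 0.05. Other p-values are called unadjusted.

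NFIX is one of the nuclear factor I (NFI) proteins, transcription factors that bind DNA as dimers at a palindrome of TTGGC and GCCAA and that activate some genes and repress others. In the mouse hippocampus they are known for their part in the step from dividing progenitors to neurons and glia, and loss of Nfix disturbs the formation of the dentate gyrus. Mature hippocampal astrocytes take up glutamate, GABA and potassium, pass lactate, lipids and amino acids to neurons, and release proteins that shape synapses.

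The targeted gene did not check the labels in the direction a knockout would give. Nfix had 5117, 4519 and 3900.5 normalized reads in the WT libraries and 7904, 5409.6 and 6877 in those labelled KO. All 3 libraries labelled KO lay above all 3 WT libraries. On the log2 scale Nfix was higher by 0.57 (SE 0.41) without being called (limma adjusted p 0.854). Averaging WT replicates 2 and 3 gave 0.52. An exact two-sided permutation test over the 20 assignments of the libraries gave p = 0.1, the smallest that 3 against 3 allows. Mean Nfix was also higher in the libraries labelled KO of the olfactory bulb (4693 against 2448 normalized reads), cortex (5026 against 3786) and thalamus (6947 against 3137). The groups overlapped in the cortex and thalamus but not in the olfactory bulb. Gene counts do not show which exons the reads came from, so a deletion of some exons was not tested. Every direction below is therefore that of the libraries labelled KO against the libraries labelled WT.

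The other NFI genes lay close to their WT levels. Nfia had 10097, 16497 and 14982 normalized reads in WT and 9659.7, 8730.1 and 15050.1 in the libraries labelled KO, a log2 difference of -0.32 (SE 0.33). Nfib differed by -0.09 (SE 0.39) and Nfic by 0.12 (SE 0.62). In each of the 3 genes the groups overlapped, and none was called. Summed over the 4 genes, NFI reads made up 2612, 2743 and 2722 CPM (reads scaled to a common library total) in WT and 2772, 2071 and 3070 CPM in the libraries labelled KO.

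WT replicate 2 was the deepest library and KO replicate 1 the shallowest. Reads assigned to genes numbered 14367346, 25616591 and 15703552 in WT and 11361818, 13355564 and 14445984 in the libraries labelled KO, and a floor of 3 reads lay between 0.117 and 0.264 CPM. Of the genes tested, 3186 (34.6%) were at 0 in at least 1 of the 6 libraries, and the median SE of a log2 difference was 1.41. Astrocyte markers were high in all 6 libraries, with a summed level over 9 genes of 75833, 75082 and 81026 CPM in WT and 88956, 48889 and 78555 CPM in the libraries labelled KO. KO replicate 2 was the lowest in astrocyte markers and the highest in 7 of 12 other marker lists, those of oligodendrocytes and their precursors, neuroblasts, microglia, fibroblasts, ependymal cells and choroid plexus. Its summed level was 8048 CPM for oligodendrocyte markers against 1588 to 5816 CPM in the other 5 libraries, 1976 CPM for microglia markers against 28.3 to 918 CPM, and 55985 CPM for choroid plexus markers against 58.0 to 12369 CPM. KO replicate 1 was the lowest in these 3 lists. In bulk RNA fewer cells of a type and less RNA per cell cannot be told apart, and the part of these other cell types in the differences below was not tested except where a value without KO replicate 2 is given.

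**Figure D1:**
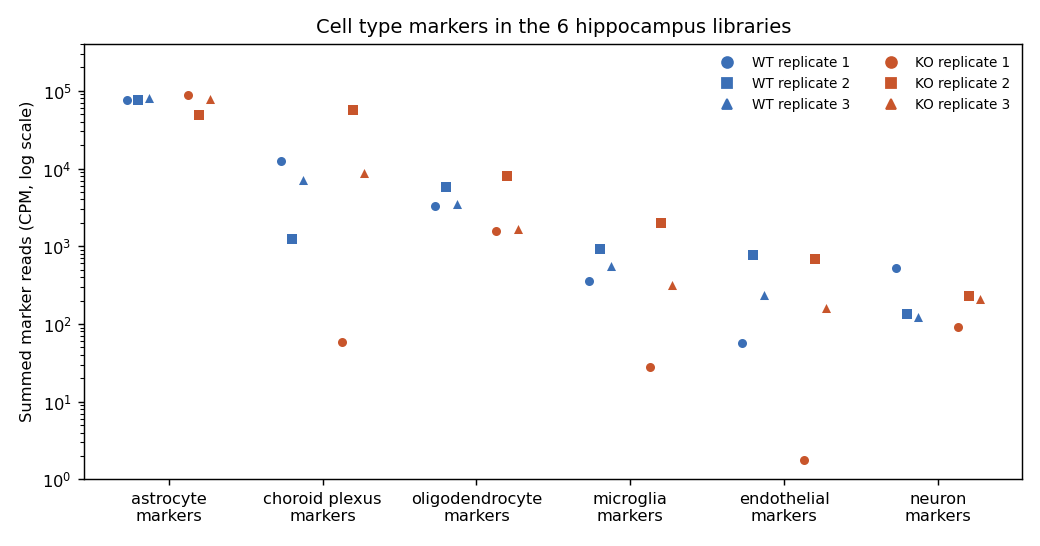
Summed level of the marker lists of 6 cell types in each hippocampus library, in CPM on a log axis. Each point is 1 library, with WT and KO in different colours, and the KO replicate 2 point is highest for oligodendrocyte, microglia and choroid plexus markers and lowest for astrocyte markers.

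WT replicates 2 and 3 were closer to each other than any other 2 libraries of the 6. Of the 8364 genes with at least 50 normalized reads in either library, 0 were at 0 in the other, whereas the other 14 pairs had 1162 to 2059 such genes (12.0 to 22.5%). The correlation of log2(normalized reads + 10) across genes with a mean of at least 50 in the pair, which are not independent replicates, was 0.743 for this pair and 0.290 to 0.409 for the others. There were 99 genes that had at least 100 normalized reads in WT replicate 2 and were at 0 in all libraries but these 2. All 99 had reads in WT replicate 3, at a median of 0.321 times the level in replicate 2 (interquartile range 0.299 to 0.357). In the reverse direction 95 genes had at least 100 in WT replicate 3 and 0 in all libraries but the pair, and all had reads in WT replicate 2, at a median of 0.0955 times the level in replicate 3 and a wide interquartile range, 0.0746 to 2.92. WT replicate 2 and WT replicate 3 each had 0 genes of at least 100 normalized reads that were at 0 in the other 5 libraries, against 48 in WT replicate 1, 35 in KO replicate 1, 198 in KO replicate 2 and 45 in KO replicate 3. Their values were not equal, so both were kept, and a second fit used their mean as 1 library. In that fit 8298 genes were tested. A gene at 0 in every library labelled KO cannot reach 3 of the 5 values and was not tested there.

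**Figure D2:**
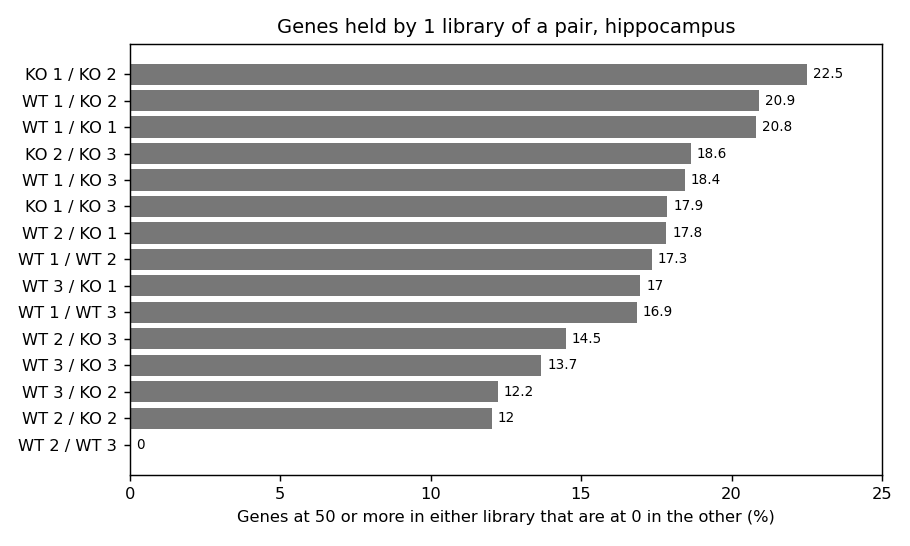
Genes with at least 50 normalized reads in either library of a pair that were at 0 in the other, in percent, for the 15 pairs of hippocampus libraries. Each bar is 1 pair, and WT replicates 2 and 3 stand at 0% while the other 14 pairs lie between 12.0 and 22.5%.

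Of the 9213 genes tested, 1 was called lower in the libraries labelled KO (0.0109%) and 0 were called higher (0%). At an unadjusted limma p under 0.05, 221 genes were higher (2.4%) and 357 lower (3.87%), 6.27% in either direction. The 3 libraries labelled KO lay above all WT libraries in 517 genes (5.61%) and below them in 601 (6.52%). The median log2 difference over all genes tested was -0.16, and 55.2% of genes had a difference below 0. With WT replicates 2 and 3 averaged, 1 gene was called lower (0.0121% of 8298) and 0 higher, the median was -0.07, 52.1% of genes had a difference below 0, and 1.54% were higher and 1.87% lower at an unadjusted p under 0.05. On the recovered reads edgeR's quasi-likelihood test called 0 genes and DESeq2 called 51 higher and 51 lower. The count of lower genes also moved with single libraries, to 5 without WT replicate 1, 7 without KO replicate 2 and 2 without either of the other libraries labelled KO. Without WT replicate 1 the WT group is only the close pair, replicates 2 and 3. The fits without 1 library labelled KO could not test genes at 0 in all WT libraries, because the filter of 3 libraries was kept. Both called genes were on the lower side, but each was called in only 1 of the 2 limma fits.

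The gene called with all 6 libraries was Tubb4a, a beta-tubulin that is abundant in oligodendrocytes and neurons. It had 3482, 6089.7 and 5088 normalized reads in WT and 380.0, 960.3 and 292 in the libraries labelled KO. Every library labelled KO was below every WT library, with the highest of them, replicate 2, also the highest in oligodendrocyte markers. Tubb4a fell by 3.30 on the log2 scale (SE 0.66; limma adjusted p 0.0307). With WT replicates 2 and 3 averaged the difference was -3.19 and no longer called (adjusted p 0.484), and without KO replicate 2 it was -3.80. It was not called either without WT replicate 2, WT replicate 3 or KO replicate 3 (adjusted p 0.640, 0.478 and 0.0611). It was called in 10 of the 23 alternatives and its difference lay between -3.80 and -2.96 over all of them. The gene lies at chr17:57080066-57087782 on the minus strand (GENCODE annotation of GRCm38), and no exon of another gene overlaps its exons.

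The gene called with the pair averaged was Nnat, or neuronatin, a paternally expressed imprinted gene for a small membrane protein of the endoplasmic reticulum. It had 15261, 7631 and 9359 normalized reads in WT and 2351, 299 and 3010.0 in the libraries labelled KO. All values labelled KO were below all WT values, and KO replicate 2 was the lowest. In the fit with the averaged pair Nnat fell by 3.13 on the log2 scale (limma adjusted p 0.00168). The difference with all 6 libraries was -2.98 (SE 0.61; adjusted p 0.123), and without KO replicate 2 it was -1.95. It was called in 12 of the 23 alternatives. The gene lies at chr2:157560078-157562522 on the plus strand within an intron of Blcap, an imprinted gene on the other strand, which had 0, 122 and 125 normalized reads in WT and 1.80, 150.1 and 76.1 in the libraries labelled KO, a log2 difference of -0.05.

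The promoters of these genes are shown because both were called in a comparison of an NFI factor. They were taken from RefSeq (build GRCm38.p6), from 250 bases before to 50 after the start of the gene, and capitals mark the NFI core motif TTGGC, searched on both strands (as TTGGC or GCCAA) together with the full palindrome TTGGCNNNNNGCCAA. The Nnat window is chr2:157559828-157560127 on the plus strand and the Tubb4a window is chr17:57087551-57087850 on the minus strand.
Nnat: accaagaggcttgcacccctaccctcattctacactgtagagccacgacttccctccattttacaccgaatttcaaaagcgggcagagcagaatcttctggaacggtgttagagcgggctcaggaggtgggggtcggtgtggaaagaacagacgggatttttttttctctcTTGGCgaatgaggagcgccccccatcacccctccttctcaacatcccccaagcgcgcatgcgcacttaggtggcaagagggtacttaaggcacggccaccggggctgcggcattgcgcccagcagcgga
Tubb4a: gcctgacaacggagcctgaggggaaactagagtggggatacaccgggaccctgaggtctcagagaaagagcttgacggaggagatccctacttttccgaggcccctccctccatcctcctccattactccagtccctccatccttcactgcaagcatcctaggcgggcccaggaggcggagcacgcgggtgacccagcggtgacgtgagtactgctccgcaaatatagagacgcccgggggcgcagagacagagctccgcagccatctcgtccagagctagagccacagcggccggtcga
The Nnat window held 1 core motif, whose first base lies at -79 from the start of the gene, and the Tubb4a window held none. At least 1 core motif was in 46.7% of all 32851 promoter windows and in 49.2% of the 9194 windows of genes tested. The full palindrome was in 0.0365% of all windows and in neither of these.

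Of the genes that did not overlap between the groups, 24 are described by their roles. They are the 12 higher and the 12 lower genes with the smallest unadjusted p whose p was also under 0.05 with the WT pair averaged and whose higher group averaged at least 500 normalized reads. Apart from Tubb4a and, with the averaged pair, Nnat, none was called. They were chosen for their p, so their values are a description.

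Among the higher genes the log2 difference was largest in Smg9, a factor of nonsense-mediated mRNA decay. It had 0, 2.37 and 11.3 normalized reads in WT and 1732, 224 and 2799 in the libraries labelled KO, 6.24 apart on the log2 scale (SE 1.63; limma adjusted p 0.293). The palmitoyltransferase gene Zdhhc18 had 0 reads in every WT library and 1945, 266 and 664 normalized reads in those labelled KO, at least 535-fold higher than the floor of 3 reads per WT library. Its lowest library, KO replicate 2, was still far above the WT libraries. Much smaller but steadier differences were in Cyfip1, which encodes a partner of the actin-regulating WAVE complex and of FMRP, and in Trp53inp2, which acts in autophagy. Cyfip1 had 505, 1443 and 1515 normalized reads in WT and 3945, 4389.5 and 2865 in the libraries labelled KO (1.82, SE 0.60). Trp53inp2 had 1039, 1521 and 1421 against 3837, 4766 and 3852 (1.65, SE 0.55). In both genes the lowest library labelled KO was far above the highest WT library.

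The other 8 higher genes were Ece1, Mmgt2, Fam19a5, Josd1, Ski, Dzip3, Ctnnbip1 and Nr2c2, with log2 differences between 2.84 and 5.32. Ece1, the endothelin-converting enzyme, had 35.1, 801 and 682 normalized reads in WT and 1336, 6897 and 1999 in the libraries labelled KO (3.17, SE 0.88), with KO replicate 2 the highest. Fam19a5, a secreted chemokine-like protein of the brain, had 41.7, 178 and 347 in WT and 2437, 911 and 1778 (3.39, SE 1.03). Of the regulators, Ski, a repressor of SMAD-dependent transcription, differed by 2.92 (SE 0.98), Ctnnbip1, an inhibitor of beta-catenin, by 4.43 (SE 1.50), and the orphan nuclear receptor gene Nr2c2 by 3.91 (SE 1.33). The deubiquitinase gene Josd1 and the ubiquitin ligase gene Dzip3 differed by 5.32 and 2.84. The magnesium transporter gene Mmgt2 differed by 5.31 (SE 1.61). Dzip3 and Fam19a5 varied least among the libraries labelled KO, and Josd1 varied most, with 57.6, 548 and 2897 normalized reads.

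Among the lower genes, 2 channel and membrane-scaffold genes had large differences. Cacna1d, the pore-forming subunit of an L-type calcium channel, had 1612, 4034 and 1228 normalized reads in WT and 0, 577 and 0.711 in the libraries labelled KO. KO replicate 2 held nearly all reads of that group and was still below every WT library. The log2 difference was -5.66 (SE 1.33; limma adjusted p 0.123), and without KO replicate 2 it was -7.60 and called (adjusted p 0.00997). Both of these fits counted WT replicates 2 and 3 as separate libraries. With that pair averaged Cacna1d was not called. Ank3, or ankyrin-G, had 1872, 2253 and 704 in WT and 91.0, 116 and 90.3 in the libraries labelled KO (-3.74, SE 1.11), evenly low in all 3.

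Cnot4, the ubiquitin ligase of the CCR4-NOT complex, had 5495, 1688 and 4569 normalized reads in WT and 168, 1434 and 41.2 in the libraries labelled KO (-3.89, SE 0.86; limma adjusted p 0.114). KO replicate 2 came close to the lowest WT library. Slc7a2, a transporter of cationic amino acids, had 7981, 6995 and 5958 in WT and 2008, 2841 and 2403 in the libraries labelled KO (-1.53, SE 0.46; adjusted p 0.592). Mfge8, a secreted protein that bridges phagocytes to dying cells and is abundant in astrocytes, had 3855, 6051 and 7248 against 1573, 235 and 2748 (-2.44, SE 0.61). Both genes were well expressed in every library, and without KO replicate 2 their differences were -1.65 and -1.41. The kinase gene Mast4 had 5107, 2541 and 7221 in WT and 902, 769.6 and 647 (-2.55, SE 0.61; adjusted p 0.123), and Prkcb, a protein kinase C, differed by -3.35 (SE 0.99). Klhl11, an adaptor of a cullin ubiquitin ligase, differed by -4.63, Derl1, which acts in the degradation of proteins from the endoplasmic reticulum, by -3.46, and Prrc2b by -1.78.

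**Figure D3:**
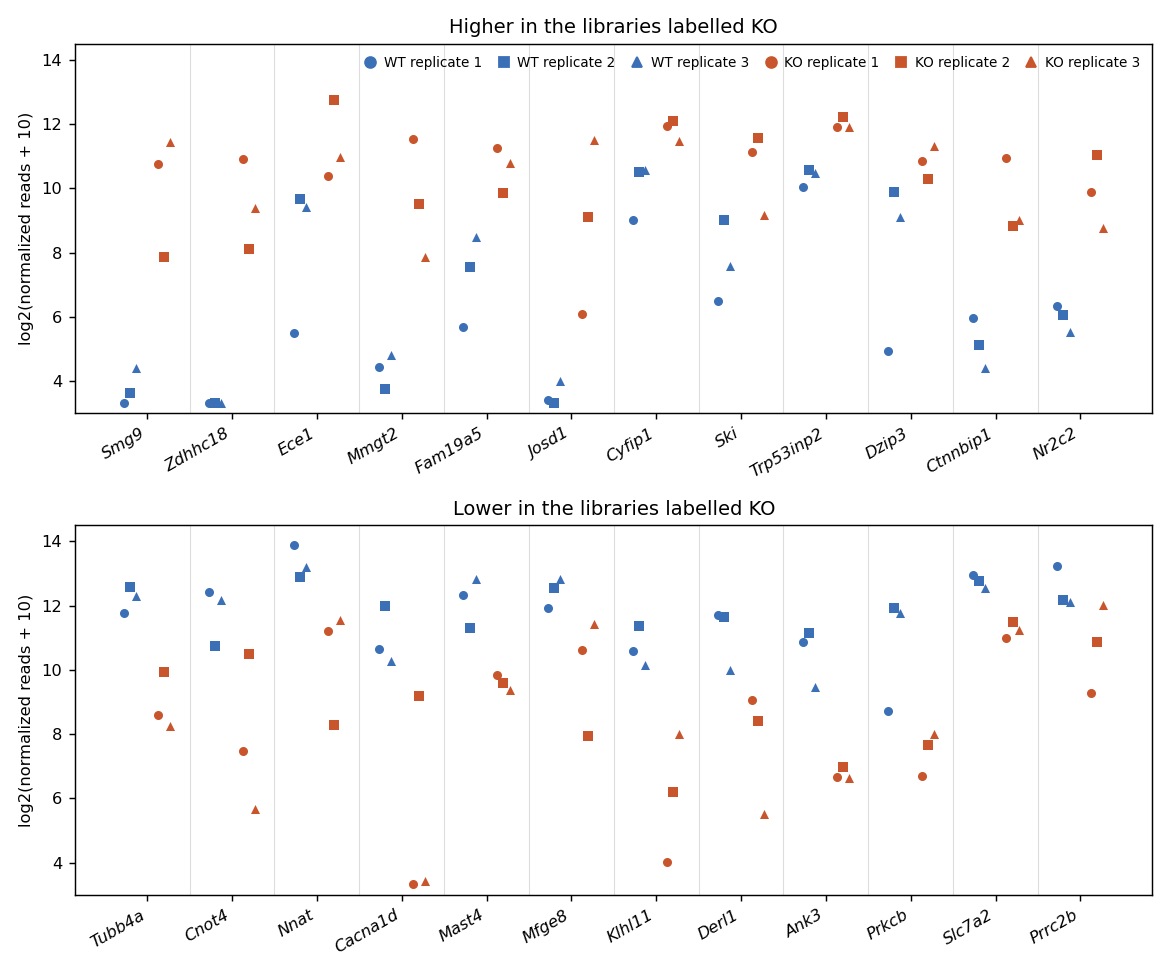
Normalized reads in each hippocampus library for 12 genes higher and 12 genes lower in the libraries labelled KO, as log2(normalized reads + 10). Each point is 1 library, the groups do not overlap in any of these genes, and Tubb4a is the only one called with all 6 libraries.

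A further set of genes was at 0 in every library of one group. Each of them passed the filter through the other group alone. There were 21 at 0 in all WT libraries with at least 10 normalized reads in each library labelled KO (0.228% of genes tested), and 49 with the reverse pattern (0.532%). The 6 with the highest mean of the former were Zdhhc18, Car14, Mastl, Ppp1r1a, Leng1 and Trmt5, at least 535, 305, 266, 235, 220 and 211 times the floor of 3 reads per library. Mastl, the Greatwall kinase of mitosis, had 190.0, 676 and 565 normalized reads in the libraries labelled KO, and Car14, a membrane carbonic anhydrase, had 195, 1406 and 39.8. In the reverse direction the 6 included Runx1t1, Rasgrf1, Otub2, Irf2bp1 and Ppp4r1l-ps, at least 284, 226, 161, 129 and 102 times lower. Rasgrf1, an exchange factor for Ras, had 913, 531 and 165 normalized reads in WT, all 3 well above the floor. For Runx1t1, Rasgrf1, Otub2 and Irf2bp1, WT replicate 3 stood to WT replicate 2 near the median ratio of 0.321 given above. WT replicate 1 was lower again except in Rasgrf1. None of the genes at 0 in a whole group was called. Among other genes described here, the WT values of Cacna1d, Ank3, Flt1, Bmp2, Serpina3n and Cacna1c also stood near that ratio. Whether WT replicates 2 and 3 are separate values for these genes was not tested.

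Oligodendrocyte markers were on the lower side. All 14 tested members had a log2 difference below 0, with a median of -1.42 against -0.16 for all genes tested, and 0 were called. Mal, a proteolipid of myelin membranes, had 2655, 4529 and 1717 normalized reads in WT and 277, 647 and 842 in the libraries labelled KO (-2.34, SE 0.72), and was the only member with no overlap, against 6.52% of all genes tested. The order of the libraries was different for Mbp, or myelin basic protein. It had 17200.1, 25399 and 19347 in WT and 9620.1, 59571 and 9919, so KO replicate 2 was the highest of the 6 libraries and the others labelled KO the lowest. Relative to the WT mean, the median member stood at -2.93 in KO replicate 1, 0.63 in replicate 2 and -1.85 in replicate 3 (log2). Without KO replicate 2 the list median was -2.36, and it was -0.89 without WT replicate 2 and -0.85 without KO replicate 1.

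**Figure D4:**
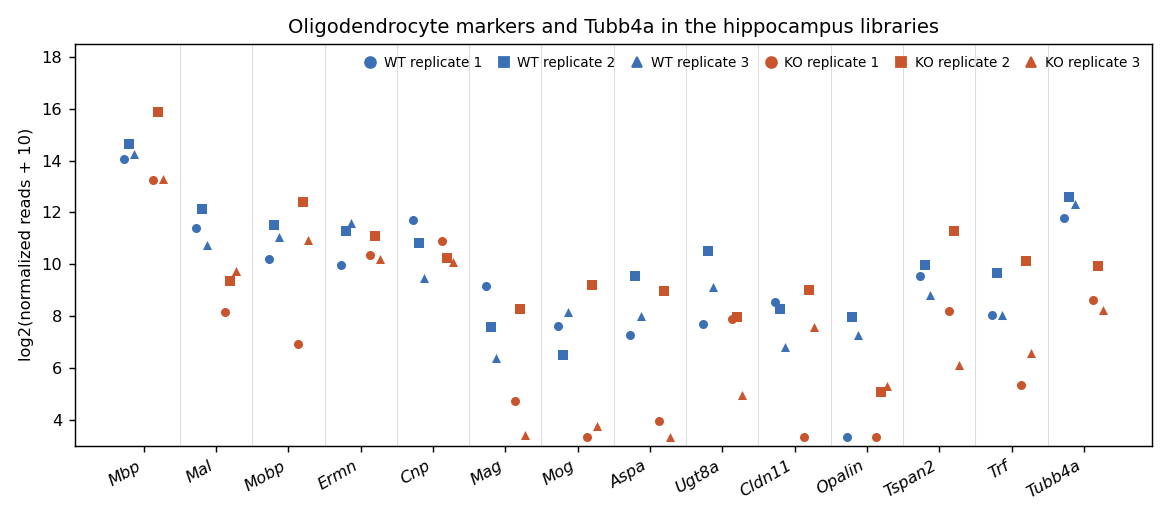
Normalized reads of 13 of the 14 oligodendrocyte markers and of Tubb4a in each hippocampus library, as log2(normalized reads + 10). KO replicate 2 lies within or above the WT range for every marker shown but Mal, and below it for Mal and Tubb4a, while KO replicate 1 lies below the WT range for most.

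Genes that define astrocytes differed little. Of 26 identity genes tested, 7 had a difference above 0 and 19 below, with a median of -0.19, and without KO replicate 2 the median was 0.00 with 13 of 26 above. Slc1a2, the glutamate transporter GLT-1, had 657604, 603134 and 682243 normalized reads in WT and 743561, 400889.9 and 639847 in the libraries labelled KO (-0.17, SE 0.22). Aqp4, the water channel of perivascular endfeet, had 19933, 32605 and 33686 against 31582, 22743 and 34449 (0.06, SE 0.25). In both genes KO replicate 2 was low and the other libraries labelled KO lay near WT. Gfap, the intermediate filament of astrocytes, differed by -0.15 (SE 0.45) and Aldh1l1, a folate enzyme used as an astrocyte marker, by -1.02 (SE 0.71). The identity gene without overlap was Gpr37l1, an orphan receptor of astrocytes, with 6097, 9873 and 7705 in WT and 5504, 5300.1 and 5937 in the libraries labelled KO (-0.47, SE 0.39). Of all genes tested, 6.52% lay below WT in all libraries labelled KO.

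Genes for handling GABA had differences in both directions. The list is of interest because the title of the series names GABA and purinergic signalling, in thalamocortical circuits. Of 28 members 17 were tested, with 7 above 0 and 10 below and a median of -0.17, near that of all genes tested, and 0 were called. Slc6a11 (GAT-3), a transporter that takes up GABA, differed by -0.22 (SE 0.37). Gabbr2, the subunit of the GABA-B receptor that couples to G proteins, had 2327, 2129 and 1079 normalized reads in WT and 81.1, 9.96 and 1169 in the libraries labelled KO. Replicates 1 and 2 labelled KO were far below WT, and replicate 3 was within the WT range (-3.77, SE 1.10; unadjusted p 0.000945; limma adjusted p 0.592). Gabbr1, the subunit that binds GABA, had 3334, 5447 and 6530.4 against 7257, 3622 and 6165 (0.15, SE 0.43).

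Among the enzymes, Aldh1a1, which can serve an alternative route of GABA synthesis, had 5691, 2857 and 2373 normalized reads in WT and 4042, 6972 and 9747 in the libraries labelled KO (0.94, SE 0.45; unadjusted p 0.039). Aldh9a1, which oxidises an aldehyde to GABA, had 929.9, 691 and 2947 against 29.7, 480.2 and 676 (-2.40, SE 1.02), all below WT. The enzymes that degrade GABA, Abat and Aldh5a1, differed by 0.13 (SE 0.42) and -1.24 (SE 0.62). An unadjusted p under 0.05 was reached by 1 higher member (2.4% of all genes tested) and 4 lower members (3.87% of all genes). With the WT pair averaged it was 0 higher and 1 lower (1.54% and 1.87% of all genes).

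Purinergic genes had a median of 0.39, with 7 of 11 tested members above 0, and -1.17 without KO replicate 2. Adk, the kinase that clears adenosine and is largely astrocytic in the adult brain, had 222, 834 and 428 normalized reads in WT and 1176, 1639.6 and 1070.4 in the libraries labelled KO. It was the only member without overlap, higher in all 3, a pattern of 5.61% of all genes tested (1.54, SE 0.86; unadjusted p 0.0782). Several other members followed the cell type markers by library. Enpp2, an ectoenzyme abundant in choroid plexus, had 44442, 5391 and 21367 in WT and 892, 143475 and 21514, and the microglial receptor gene P2ry12 had 529, 2493 and 1171 against 133, 2567 and 268. Both were highest in KO replicate 2 and lowest in KO replicate 1, as were choroid plexus and microglia markers. Adora1, the adenosine A1 receptor, differed by -0.34 (SE 1.19).

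Glutamate genes had medians of -0.07 (13 members of uptake and glutamine cycling) and -0.05 (11 receptors). Glul, the glutamine synthetase, had 54972, 52302 and 56659 normalized reads in WT and 65438, 45542 and 60744 in the libraries labelled KO (0.05, SE 0.20), and Slc1a3, the transporter GLAST, differed by -0.22 (SE 0.20). Got1, the cytosolic aspartate aminotransferase, was above WT in all 3 libraries labelled KO, with 0, 78.1 and 49.3 against 325, 227 and 536 (3.23, SE 1.64; unadjusted p 0.0521).

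Genes of potassium and water balance had a median of -0.11 over 21 members. At an unadjusted limma p under 0.05, 1 was lower (3.87% of all genes tested). In all libraries labelled KO, 1 lay below WT (6.52% of all genes tested). The former was Clcn2, a chloride channel, with 22.0, 608 and 228 normalized reads in WT and 27.9, 0 and 0.711 in the libraries labelled KO (-3.39, SE 1.70), with overlap. The latter was Kcnk1, a potassium channel, with 1171, 1788 and 1321 against 1130.2, 814 and 522 (-0.83, SE 0.75). The inward rectifier Kcnj10 (Kir4.1) had 10646, 14116 and 12704 normalized reads in WT and 16234, 11276 and 18065 in the libraries labelled KO (0.26, SE 0.31), and its partner Kcnj16 (Kir5.1) had 7506, 5071 and 6248 against 9675, 752 and 9688, low in KO replicate 2 alone. Of 18 calcium genes, 3 lay below WT in all libraries labelled KO (Cacna1d, Cacna1c and Cacnb4; 6.52% of all genes tested) and 1 above (Cacnb2; 5.61%), all 4 subunits of voltage-gated channels. Cacna1c, the pore of another L-type channel, had 106, 56.0 and 19.3 normalized reads in WT and 0 in all 3 libraries labelled KO, so it passed the filter through WT alone. The auxiliary subunit gene Cacnb4 had 171, 181 and 62.6 against 0, 40.6 and 0, and Cacnb2 had 0, 9.08 and 4.00 against 15.3, 147 and 96.7. Cacnb2 passed the filter through the libraries labelled KO alone. For Cacna1c and Cacnb2 the lack of overlap is therefore not separate from the filter. Cacna1c, Cacnb4 and Cacnb2 had at most 181 normalized reads in any library. The receptor channel of the endoplasmic reticulum that serves astrocyte calcium signals, Itpr2, differed by -0.38 (SE 0.52).

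Of the secreted and surface factors that act on synapses, 23 of 27 tested members had a difference below 0, against 55.2% of all genes, with a median of -0.29. Without KO replicate 2 it was 15 of 24 (62.5%) against 55.7% of all genes, and the median was -0.11 against -0.21 for all genes. Lower in every library labelled KO than in every WT library were 3 members, a pattern of 6.52% of all genes tested. The same 3 were lower at an unadjusted p under 0.05 (3.87% of all genes). With the WT pair averaged 1 member was (1.87% of all genes). Thbs4, a thrombospondin, had 790.1, 966 and 357 normalized reads in WT and 0, 1.53 and 169.9 in the libraries labelled KO (-4.58, SE 1.60; unadjusted p 0.0054). Mdk, or midkine, a heparin-binding growth factor, had 289, 1674 and 680.3 against 76.6, 214 and 4.98 (-3.41, SE 1.41). Megf10, a receptor with which astrocytes engulf synapses, had 4658, 2859 and 3247 against 1451, 1299 and 2211 (-1.12, SE 0.55; unadjusted p 0.0456). Among these, Megf10 had the steadiest values within each group. Mertk, another engulfment receptor, differed by 0.22 (SE 0.47). Sparcl1, or hevin, which promotes synapse formation, had 175373, 199088 and 224598 normalized reads in WT and 218466, 90311 and 199789.9, low in KO replicate 2 only, and Ptn, the paralogue of midkine, differed by -0.17 (SE 0.32).

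Developmental signalling lists had individual members apart but no direction common to all lists. Of 32 Notch, BMP and Wnt genes 11 were above 0 and 21 below (55.2% of all genes were below), with a median of -0.24. Without KO replicate 2 the median was -0.61, against -0.21 for all genes. In all libraries labelled KO, 4 members lay below WT (6.52% of all genes tested) and 0 above (5.61%). Id2, an inhibitor of basic helix-loop-helix factors, had 281, 1546 and 1858 normalized reads in WT and 3842, 908 and 8590.1 in the libraries labelled KO (1.72, SE 0.70), with KO replicate 2 inside the WT range, and differed by 2.14 with the WT pair averaged (unadjusted p 0.004). The ligand gene Bmp2 had 49.1, 245 and 75.3 in WT and 0 in all libraries labelled KO, so it passed the filter through WT alone. The Wnt receptor gene Fzd2 had 313, 658 and 692 against 261, 5.36 and 57.6, and Hes5, a Notch target, had 63.7, 381 and 165 against 54.0, 49.0 and 32.7, both without overlap. Among 6 Eph and ephrin genes, Epha4, an ephrin receptor studied at hippocampal synapses, was higher in all libraries labelled KO, at 1517, 858 and 234 against 0, 18.2 and 76.0 in WT (4.57, SE 1.58; unadjusted p 0.00488). Ephb1 had 169.9, 833 and 1326 in WT and 7.20, 564 and 0 in the libraries labelled KO, with only KO replicate 2 inside the WT range. The 9 Hedgehog genes had a median of 0.54, which became -0.43 without WT replicate 1, -0.24 without KO replicate 3 and 1.11 with the WT pair averaged, and 0 members without overlap.

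Genes linked to hippocampal progenitors and to NFI had a median of 0.07 over 13 of 19 members. Ezh2, the methyltransferase of Polycomb complex PRC2 known to be repressed by NFIB in the embryonic mouse cortex, had 11.0, 2.76 and 0.666 normalized reads in WT and 517, 25.3 and 732 in the libraries labelled KO (4.08, SE 1.73; unadjusted p 0.0205). All 3 libraries labelled KO were above WT, replicate 2 by little. With the WT pair averaged, 0 members of this list had an unadjusted p under 0.05. Pax6, a factor of radial glia, had 159.6, 179 and 508 against 145, 89.6 and 3.55, all below WT (-2.10, SE 1.62).

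Lipid genes were close to the background in number, with 14 of 26 cholesterol and fatty acid synthesis genes above 0 and a median of 0.06. Sc5d, which acts near the end of cholesterol synthesis, had 733, 1021 and 1436 normalized reads in WT and 2046, 3125 and 3271 in the libraries labelled KO (1.42, SE 0.63; unadjusted p 0.0264). Abca1, the exporter of cholesterol to apolipoproteins, had 839.9, 1614 and 912 against 2341, 2172 and 4426 (1.39, SE 0.62; unadjusted p 0.0285). Both were higher in all 3 libraries labelled KO. Apoe, the main apolipoprotein of astrocytes, differed by -0.23 (SE 0.22). Apod had 1474, 1768 and 1964 in WT and 10.8, 5396 and 7.82 in the libraries labelled KO, so that 2 of these were near 0 and KO replicate 2 was the highest of all.

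In energy metabolism, 25 genes of glycolysis and glycogen had a median of -0.15. Pgk1, a glycolytic kinase, was higher in all libraries labelled KO, at 3443, 1794 and 2766 normalized reads against 1449.8, 1003 and 869.5 in WT (1.24, SE 0.63). Pygb, the brain glycogen phosphorylase, had 9168, 11888 and 10382 in WT and 5435, 4149 and 10032 (-0.77, SE 0.38; unadjusted p 0.0429), with KO replicate 3 inside the WT range. The lactate transporter gene Slc16a1 had 428, 1442 and 640.3 against 87.4, 398 and 58.3, all below WT (-2.42, SE 1.21), and is also expressed in endothelial cells and oligodendrocytes. In the fit with the averaged pair, 0 members of this glycolysis and glycogen list had an unadjusted p under 0.05. Serine and glycine metabolism had a median of 1.38 over 8 members (0.89 with the WT pair averaged), with 7 above 0 but 0 without overlap and 0 at an unadjusted p under 0.05. Its first enzyme, Phgdh, had 1311, 1547 and 2604 in WT and 2406, 894 and 1911 in the libraries labelled KO (-0.12, SE 0.63). The higher members were ones with fewer reads, such as Psph, the last step of serine synthesis, with 190.4, 106 and 32.0 against 1366, 375 and 64.0, and Srr, the serine racemase, with 199.9, 5.13 and 25.99 against 898, 59.0 and 118.

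Most genes of ribosomes and mitochondria had differences above 0. Of 72 cytosolic ribosomal protein genes tested, 52 were above 0 against 44.8% of all genes, with a median of 0.26 in both fits and 0.22 without KO replicate 2. Their summed level was 11453, 12149 and 11967 CPM in WT and 13644, 14527 and 13216 CPM in the libraries labelled KO, with no overlap. Singly, 4 of the 72 lay above WT in all libraries labelled KO (5.61% of all genes tested), which were Rpl11, Rpl13a, Rplp2 and Rps16, and 0 were called. Of 76 nuclear genes of the respiratory chain, 46 were above 0, with a median of 0.23 and 0.09 with the WT pair averaged. Without KO replicate 3 it was 39 of 75, with a median of 0.030. In this list 9 members lay above WT in every library labelled KO (5.61% of all genes) and 4 below (6.52%). Cox7b, a subunit of cytochrome c oxidase, had 1384, 1527 and 2124 normalized reads in WT and 3798, 3414 and 3124 in the libraries labelled KO (1.05, SE 0.55). Uqcrc2, a subunit of complex III, had 3927, 2803 and 1520.5 against 845, 1360.1 and 1252 (-1.17, SE 0.63).

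Tubulins other than Tubb4a were not uniformly lower. Of 10 members tested 6 were below 0, and their summed reads were 1822, 1179 and 1284 CPM in WT and 1303, 1509 and 1406 CPM in the libraries labelled KO, with overlap. Tuba4a lay above WT in all 3 libraries labelled KO, at 289, 439 and 941 normalized reads against 147, 233 and 169, and Tubb2b differed by -0.55 (SE 0.50). Imprinted genes other than Nnat had overlapping groups, and 11 of 16 members were below 0, against 55.2% of all genes tested. Peg3, a paternally expressed zinc finger gene, differed by -0.73 (SE 0.71).

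Reactive astrocyte genes had a median of -0.76 over 10 tested members of 25. Serpina3n, a protease inhibitor induced in reactive astrocytes, had 612, 61.6 and 18.7 normalized reads in WT and 0, 3.83 and 0 in the libraries labelled KO (-3.28, SE 1.49; unadjusted p 0.03). It passed the filter through WT alone and so was not tested with the WT pair averaged. In that fit 0 members of the list had an unadjusted p under 0.05. Stat3, a transcription factor of the reactive response, had 3541, 963 and 1489 against 1003, 243 and 1000.0 (-1.44, SE 0.77). Immediate early genes, which respond to tissue dissociation, followed single libraries: Jun had 2378, 4081 and 1710.4 in WT and 36.0, 5207 and 372 in the libraries labelled KO, and Egr1 had 5864, 6001 and 2936 against 633, 11236 and 851. KO replicate 2 was the highest of the 6 libraries in both genes and KO replicate 1 the lowest. The list median was -0.35, and -1.48 without KO replicate 2. Glutathione and antioxidant genes had a median of -0.12 over 21 members and connexins -0.77 over 4, with 0 members apart from WT in either list. The connexin median was -0.19 without KO replicate 2, and summed connexin reads were 1560, 1745 and 1707 CPM in WT and 2270, 985 and 2875 CPM in the libraries labelled KO, so that only KO replicate 2 was below WT.

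Markers of other cells moved by library as well. Endothelial markers had a median of -1.14 over 7 members, with 3 lower at an unadjusted p under 0.05 (3.87% of all genes) and 1 with the WT pair averaged. The median was -0.52 in that fit, -0.090 without WT replicate 2, -0.25 without KO replicate 1 and -2.81 without KO replicate 2. Flt1, a VEGF receptor, had 278, 3173 and 959 normalized reads in WT and 16.2, 510.0 and 4.98 in the libraries labelled KO (-4.03, SE 1.40; limma adjusted p 0.698). Their summed level was 57.6, 772 and 237 CPM in WT and 1.76, 689 and 161 CPM in the libraries labelled KO. Microglia markers had a median of -0.86 over 9 members, -0.041 without KO replicate 1 and -2.17 without KO replicate 2. The complement gene C1qb had 835, 891 and 725 in WT and 3.60, 1766 and 19.9, with KO replicate 2 above all WT libraries. Ttr, the transthyretin of choroid plexus, ranged from 393 normalized reads in KO replicate 1 to 559069 in KO replicate 2. Neuronal RNA was low, with summed markers of 528, 135 and 123 CPM in WT and 91.4, 230 and 209 CPM in the libraries labelled KO. Of 12 markers of hippocampal neurons 5 were at 0 in all 6 libraries, and of 5 blood cell markers 4 were. Nrgn, neurogranin, was higher in all libraries labelled KO, at 415, 42.1 and 525 normalized reads against 0.732, 0.395 and 15.3 in WT (4.01, SE 1.71; unadjusted p 0.0215), while Snap25, a protein of synaptic vesicle release, had 3493, 177 and 488 in WT and 0, 218 and 667. With the WT pair averaged, 0 neuron markers were higher and 1 was lower at an unadjusted p under 0.05.

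Several list medians changed sign when 1 library was left out. Each such fit kept the filter of 3 libraries, so its tested members changed as well. Over the 6 such fits the medians ranged from -0.22 to 0.016 for glutamate uptake and -0.32 to 0.47 for glutamate receptors. For GABA genes they ranged from -0.38 to 0.052. Cholesterol and fatty acid synthesis had medians of -0.36 to 0.26, and glutathione and antioxidant genes had medians of -0.18 to 0.13. Those of purinergic genes ranged from -1.17 to 0.77 and those of immediate early genes from -1.48 to 0.53.

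**Figure D5:**
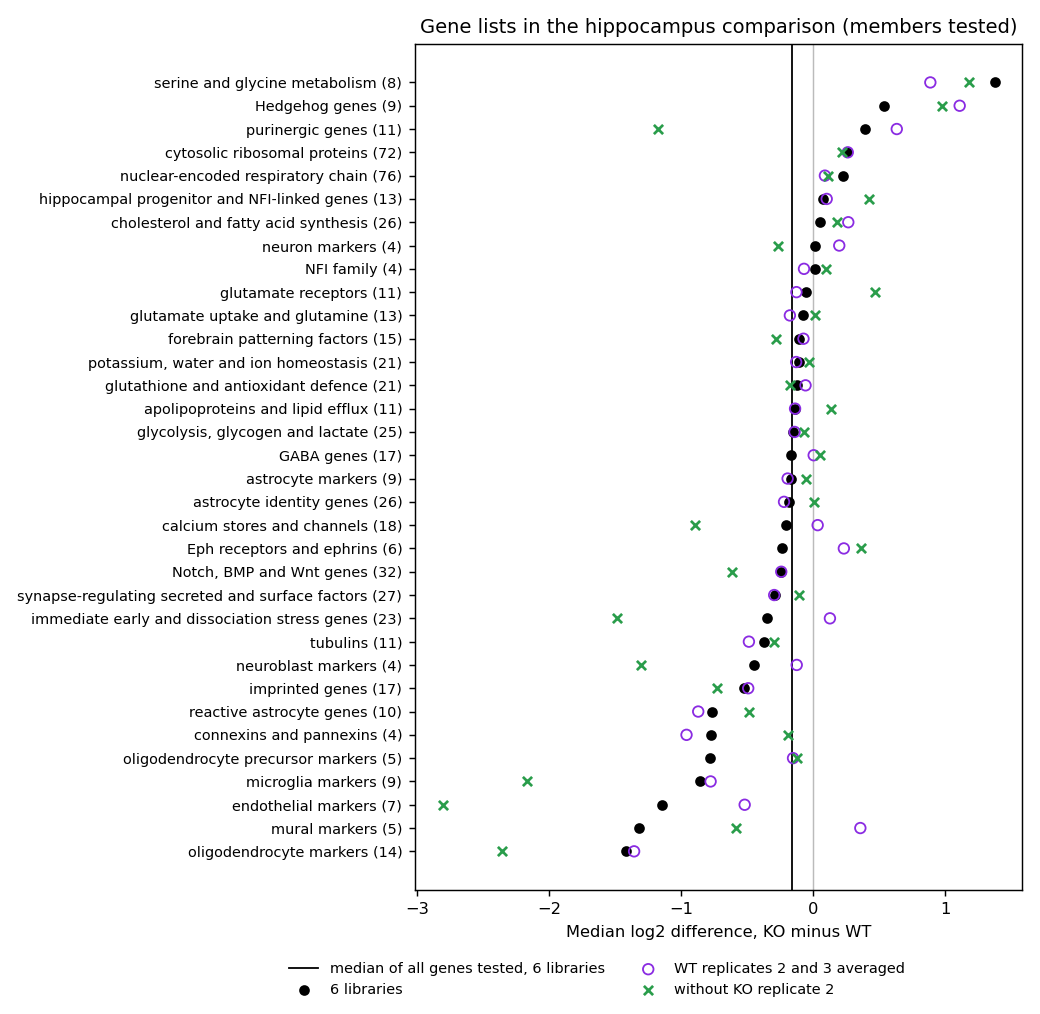
Median log2 difference (libraries labelled KO minus WT) of the tested members of each gene list with at least 4 tested, their number in brackets, with all 6 libraries, with WT replicates 2 and 3 averaged and without KO replicate 2. The vertical black line is the median of all genes tested with 6 libraries (-0.16), and each fit has its own tested members. Leaving out KO replicate 2 moves the endothelial, purinergic, microglia, immediate early and oligodendrocyte medians furthest down.

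The hippocampus difference was also set against the mean of the differences in olfactory bulb, cortex and thalamus, over 12477 genes of all 24 libraries. No gene was called by limma (0%), and 493 had an unadjusted p under 0.05 (3.95%). Without WT replicate 1 of the hippocampus 9 genes were called, with only the close pair, replicates 2 and 3, left as WT there. Neither called gene was therefore shown to be particular to the hippocampus. Among the other regions 2 libraries stood apart, cortex WT replicate 3 with 4803663 reads and 3871 genes detected and thalamus KO replicate 3 with 2517487 reads and 2220 genes, against 7509 to 11984 genes in the other libraries. Without both, 0 genes were called and 611 had an unadjusted p under 0.05. Tubb4a differed by -1.06 in the olfactory bulb, -1.12 in the cortex and -4.22 in the thalamus, and the hippocampus departed from their mean by -1.17 (SE 1.69). Thalamus KO replicate 3 was at 0 for Tubb4a, and without the 2 libraries the cortex and thalamus differed by -0.65 and -1.53 and the departure was -2.22 (SE 0.86; limma adjusted p 0.887). Nnat differed by -0.02, -1.32 and 0.04 in the same order, a departure of -2.55 (SE 1.72). Cortex WT replicate 3 was at 0 for Nnat and thalamus KO replicate 3 had 22318 normalized reads against 2831 and 2710 in the other thalamus libraries labelled KO. Without the 2 libraries the cortex and thalamus differed by -3.95 and -0.96 and the departure was -1.34 (SE 1.05). In WT the hippocampus had the highest mean of Nnat of the 4 regions, 10750.4 ± 4001 in the hippocampus, 5527 ± 1344 in the thalamus, 3769 ± 954 in the olfactory bulb, 1584 ± 1404 in the cortex (normalized reads, mean ± SD, n = 3). The smallest p-values of this contrast belonged to Ect2, Smg9, Mastl, Zfp59 and Zdhhc18. Ect2, an exchange factor for small GTPases in cell division, had 114, 324 and 116 normalized reads in WT hippocampus and 0 in the libraries labelled KO, and across the other regions its highest value was 0.738, in 1 olfactory bulb library. Ect2 therefore passed the filter through WT hippocampus alone, the group that holds the close pair, replicates 2 and 3. Smg9 departed from the other regions by 7.96 (SE 1.97) and Zdhhc18 by 7.23 (SE 1.99).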

How the data were processed

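Sorted cells were processed with the RNeasy Micro kit and the Revelo RNA-seq High Sensitivity kit from 10 ng of RNA, per the labels' protocols. Build mm10, STAR 2.5.0a, DESeq2 1.20.0, R 3.5.2, MultiQC 0.9 and FastQC 0.10.1 are named in the submitters' processing notes. The sources used here give no read counter, annotation or strand setting, so reads of overlapping genes cannot be told apart, and 11 of 38 named genes share exon bases with another gene. The deposited signal values are read counts that the authors divided by 1 size factor per library: 100% were whole multiples of 1 read within 0.001, and recomputed factors departed by 0%. Of 24421 entries 27 named as dates were left out. Reads without molecular identifiers make floors cover counting error only.

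Computed from these were limma-trend fits (limma 3.58.1, R 4.3.3; trend and robust) on log2(value + 10). The code was also run on simulated counts of independent libraries. That run did not hold the close WT pair and gives no error rate for these data. Alternatives used edgeR 4.0.16 and DESeq2 1.42.0 on recovered reads, other filters, pseudocounts and factors, and left out each replicate. Groups came from the genotype and tissue labels. No shared animal is documented for equal replicate numbers.

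The compared groups, the 39 gene lists and the rule for named genes were chosen with earlier results of these data known. The rule named Nfix, called genes, 12 genes in each direction with no overlap, p under 0.05 in both fits and a mean of at least 500, the 6 highest in each direction among genes at 0 in a whole group, 5 genes of the contrast with other regions, and leading list members. The definition of a leading member (unadjusted p under 0.05, or the smallest p in each direction if under 0.2) was settled after values were seen. Other list members in the text were chosen for their roles, also with their values known. Genes without an official symbol were passed over. Some genes that the rule or the lists would name are not reported here.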

Additional observations from a re-analysis of the deposited data

How the results depend on the processing

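With 23 alternatives, Nfix kept its direction and stayed uncalled, at log2 differences from 0.44 to 0.72. The number of genes called higher in the libraries labelled KO was 0 with all 6 libraries, 5 with array weights, 51 with DESeq2 and the deposited factors, 57 with DESeq2's own factors and 35 with DESeq2 on the summed reads of WT replicates 2 and 3. The number called lower was 1 with all 6 libraries. It was 0 with all 24 libraries in one fit, a pseudocount of 1, no filter, a minimum of 10 in all 6 libraries, upper-quartile factors, edgeR, and edgeR on the summed pair. It was 3 with a pseudocount of 100, 18 with array weights, 51 and 62 with DESeq2 (deposited and own factors), and 2 with limma-voom and 7 with DESeq2 on the summed pair. Leaving out each replicate in turn gave 0 to 0 higher and 1 to 7 lower genes. Those fits kept the filter of 3 libraries. Without a library labelled KO, genes at 0 in all WT libraries were not tested. Without a WT library, genes at 0 in all libraries labelled KO were not tested. The higher and lower counts of these fits are therefore not alike in what they could call. The contrast with the other regions gave 0 calls, 5 with no filter and 0 to 9 without each replicate in turn. The 9 were without WT replicate 1, which leaves only the close pair as WT hippocampus. The summed-pair fits and DESeq2's own factors were chosen after seeing the data. The causes were not tested, except that a stricter filter tests fewer genes.

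Deviations of libraries with the same replicate number correlated at 0.015, 0.063 and -0.037, so the numbers were not taken to pair the libraries. With the replicate number as a block, 3 genes were called lower (Cnot4, Nnat and Tubb4a) and 0 higher.

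Of 141 results on single genes, 19 changed direction under at least 1 alternative, and none of these genes was called with all 6 libraries. The log2 differences of opposite sign were, with array weights, Adora1 (0.42), Aqp4 (-0.11), Enpp2 (0.10), Gabbr1 (-0.075), Gfap (0.059), Nfib (0.041) and Slc6a11 (0.0043). With the WT pair averaged Blcap changed sign (0.58), and also with a pseudocount of 1 (0.36). With limma-voom they were Aqp4 (-0.028), Blcap (0.61), Enpp2 (0.33) and Ttr (0.092), and on the summed pair Blcap (1.75) and Enpp2 (0.00086). With edgeR they were Enpp2 (1.08), Gria4 (0.17), Kcnj16 (0.12), Mbp (0.27) and Ttr (1.46), and on the summed pair Apod (0.019), Blcap (0.29), Enpp2 (0.87), Gria4 (0.19), Kcnj16 (0.073), Mbp (0.32), Phgdh (0.12) and Ttr (1.27). With DESeq2 and the deposited factors they were Enpp2 (1.22), Kcnj16 (0.10), Mbp (0.35) and Ttr (1.59), with its own factors Enpp2 (1.09), Kcnj16 (0.10), Mbp (0.30) and Ttr (1.46), and on the summed pair Blcap (0.38), Enpp2 (0.88), Kcnj16 (0.073), Mbp (0.37), Phgdh (0.15) and Ttr (1.29). Leaving out each replicate in turn, the ranges that crossed 0 were those of Adora1 (-1.32 to 0.77), Aqp4 (-0.19 to 0.24), Blcap (-1.29 to 1.06), Enpp2 (-1.97 to 1.69), Gabbr1 (-0.13 to 0.44), Gfap (-0.47 to 0.036), Glul (-0.054 to 0.21), Itpr2 (-0.68 to 0.10), Kcnj16 (-1.19 to 0.64), Mbp (-1.06 to 0.26), Mertk (-0.011 to 0.42), Nfib (-0.35 to 0.17), Phgdh (-0.41 to 0.30), Slc1a2 (-0.35 to 0.093), Slc6a11 (-0.53 to 0.064), Sparcl1 (-0.56 to 0.073) and Ttr (-3.05 to 2.17).

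With 3 libraries a group, a median SE of 1.41 and 34.6% of tested genes at 0 in some library, many differences below about 1 SE to 2 SE could not be told from the spread between libraries.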
